A study of Glycyrrhiza uralensis with 24 samples.

Results

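Of 34445 gene IDs measured in seedlings of licorice (Glycyrrhiza uralensis), 62 were lowered after 2 h of salt both in the aerial parts and in the roots. An ID was counted as lowered when all 3 libraries of the 2 h group lay below all 3 control libraries of the same organ, its mean was at least 3-fold lower, and its control mean was at least 10 TPM. TPM is a transcript level scaled for transcript length and for library size. The fold was taken on TPM + 1. The same rule found 278 IDs lowered in aerial parts and 362 in roots, so the 62 genes were 22.3% of the aerial list and 17.1% of the root list. It found 40 IDs raised at 2 h in both organs, 5 raised in aerial parts and lowered in roots, and 2 with the reverse pattern. The 62 genes were chosen by their control and 2 h values, so these values are given as a description with no test.

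The study sequenced total RNA of stems and leaves (the aerial parts) and of roots from 60-day-old seedlings, with 3 libraries in each of 8 groups. All seedlings had been grown in hydroponics for a week. The controls are labelled as distilled water, taken at 0 h, and the salt groups as MS nutrient solution (Murashige and Skoog medium) with 150 mM NaCl for 2, 6 or 12 h. The treatment protocol also names it a simulated drought, and salt is used here as the other labels give it. According to its title, the study asked how salt acts on the accumulation of liquiritin, a licorice flavonoid, and on signalling by abscisic acid.

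Salt around a root lowers the water potential first and loads the plant with sodium later. Roots meet it directly, and shoots receive both the water deficit and hormonal signals such as abscisic acid through the xylem. In well-studied plants the first hours bring a slowing of growth, closing of stomata and a fast reprogramming of transcription, part of which fades as the plant adjusts. Licorice roots are known for glycyrrhizin, a triterpene saponin, and for liquiritin.

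The files do not pair the gene IDs with names, so no function is given for any of the 62 genes, and the organ labels could not be checked against marker genes. Controls and salt groups differ in the medium, in the pattern of their sample titles and in the hour of sampling as well as in salt, and these cannot be told apart. The labels do not say whether the libraries of a group came from separate plants, so the p-values below measure only the spread between these libraries. In bulk tissue, fewer cells of a type and less RNA per cell cannot be told apart.

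Before salt, the 62 genes spanned a wide range of levels. Their control means ran from 10.6 to 793 TPM in aerial parts, with a median of 45.2, and from 11.4 to 3174 TPM in roots, with a median of 42.5. In 32 of the genes the control means of both organs lay within 2-fold of each other. In 18 genes the root mean was at least 2-fold the aerial mean, and in 12 the aerial mean was at least 2-fold the root mean.

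After 2 h the median of the group means stood at 6.05 TPM in aerial parts and at 7.90 TPM in roots. In aerial parts 11 of the 62 genes had a 2 h mean under 1 TPM, and in roots 5 did, against none in the controls of either organ. The log2 ratio of 2 h to control, on TPM + 1, had a median of -2.48 in aerial parts and ran from -7.99 to -1.59. In roots its median was -2.24 and its range -5.05 to -1.59. Over the 16718 genes whose mean across all libraries reached 0.5 TPM the same medians were -0.15 and -0.09. All 62 genes passed that filter, since the rule already asked for higher levels.

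**Figure D1:**
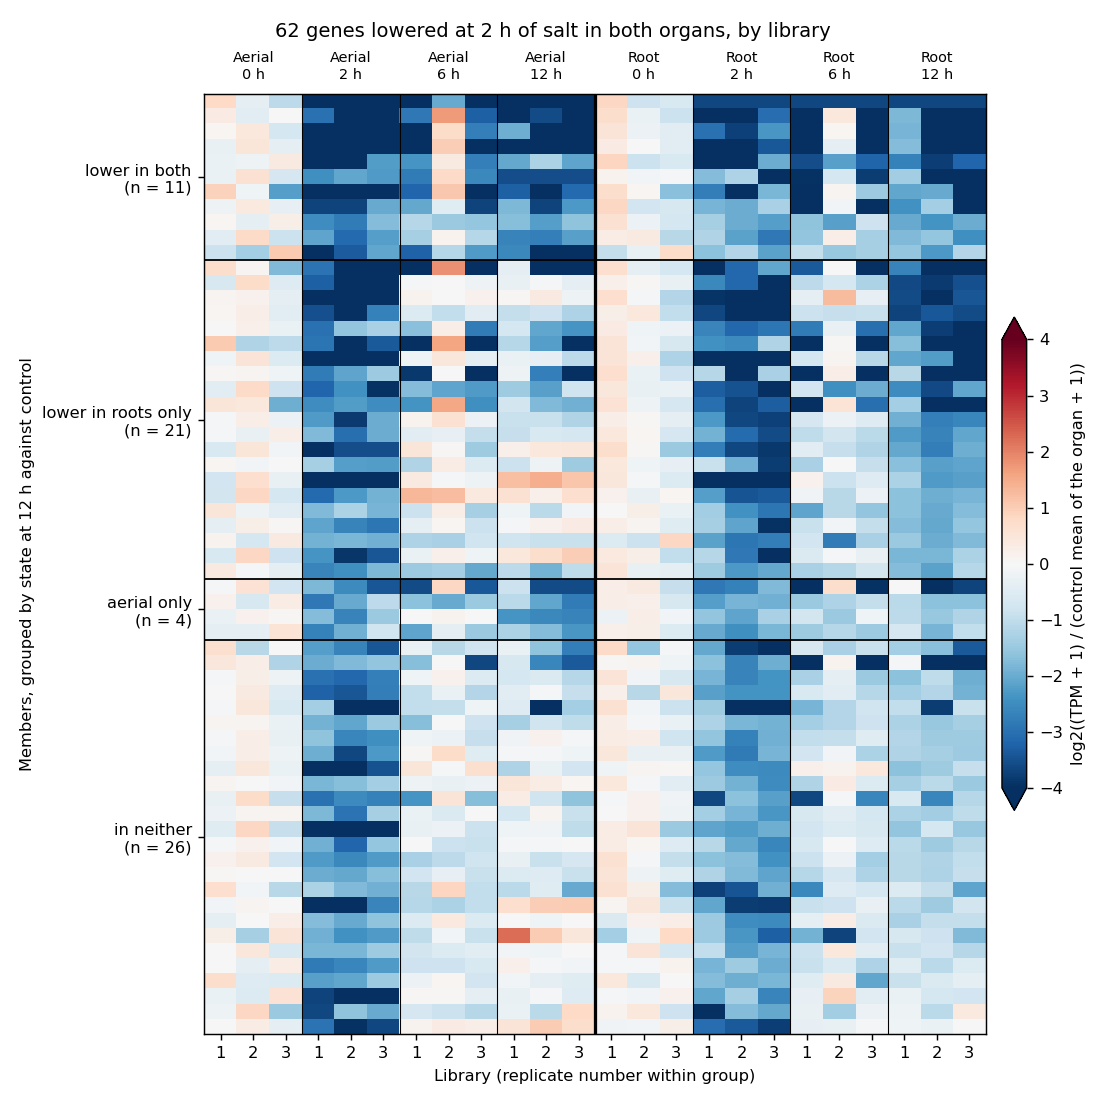
Log2 ratio of TPM + 1 to the control mean of the same organ for each of the 62 genes (lines) in each of the 24 libraries (columns), by organ and time, with genes grouped by their state at 12 h and colour limits at -4 and 4. The 2 h columns are low throughout because the rule chose the genes there. At 6 h many values were nearer to control, with replicate 2 highest for 40 genes in aerial parts and 41 in roots, and at 12 h the root columns were low again.

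By the mean of both organs' log2 ratios, the lowest 2 h values relative to control were found for Glyur000027s00001583 and Glyur000785s00024157. The aerial controls of Glyur000027s00001583 had 520.4, 826 and 394 TPM, and its 2 h aerial libraries had 0.99, 1.47 and 1.4 TPM. In roots its controls had 481, 387 and 143 TPM and its 2 h libraries 7.5, 4.16 and 15.9 TPM. On TPM + 1 the control mean was thus 254-fold the 2 h mean in aerial parts and 33.2-fold in roots.

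At 6 h Glyur000027s00001583 was inside its control range in aerial parts, with 512, 802 and 442 TPM. The 6 h roots had 209, 363 and 156 TPM, inside the range of the root controls. By 12 h the aerial libraries had 478, 459 and 281 TPM, and the roots had 78.4, 70.2 and 13.5 TPM, all below the root controls.

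Glyur000785s00024157 was listed at 0 in all 3 root libraries at 2 h and in 2 of the 3 aerial ones, the other being at 0.8 TPM. Its control libraries had 53.5, 146 and 73.7 TPM in aerial parts and 29.1, 19.4 and 13.8 TPM in roots. At 6 h its levels were 116, 85.6 and 79.2 TPM in aerial parts and 23.4, 11.0 and 14.1 TPM in roots, overlapping the controls in each organ. At 12 h the aerial libraries had 212, 249 and 196 TPM, above every aerial control, and the roots had 7.96, 3.57 and 3.8 TPM, below every root control.

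By control means summed over both organs, the gene with the highest level was Glyur001793s00029326. Its root controls had 4211, 3318 and 1993 TPM, 32.2% of the summed TPM of the 62 genes in control roots. At 2 h its roots had 856, 372 and 265 TPM, at 6 h 1575, 1890 and 1509.9 TPM, and at 12 h 665, 496 and 748 TPM. All salt-treated root libraries lay below the root controls, and those of 6 h lay above those of 2 h and 12 h. In aerial parts the levels were lower, with 588, 491 and 728 TPM in controls, 178, 73.8 and 151 TPM at 2 h, 437, 476 and 310.0 TPM at 6 h and 317, 398 and 374 TPM at 12 h.

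Glyur000643s00026925, next by the same sum, varied widely between libraries. Its aerial controls had 1063, 315 and 677 TPM and its root controls 794, 159 and 440.5 TPM. The 2 h libraries had 148, 108 and 62.3 TPM in aerial parts and 111, 32.3 and 6.61 TPM in roots. At 12 h the aerial libraries spread from 100.3 to 566 TPM and the root libraries from 44.4 to 179 TPM, and no test among the 6 h and 12 h libraries called this gene.

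The 3-fold limit cut a continuous range of changes. Just inside it stood Glyur000330s00019524, at 21.8 ± 9.32 TPM in root controls and 6.57 ± 3.47 TPM at 2 h (SD, n = 3), a ratio of 3.01 on TPM + 1. In aerial parts its ratio was 3.21, from 213.3 ± 75.5 to 65.7 ± 11.5 TPM (SD, n = 3). Glyur000094s00007848 also stood at 3.01 in aerial parts and at 4.23 in roots. Just outside were Glyur000182s00014545, with a ratio of 2.99 in aerial parts, and Glyur000437s00025648, with 2.96 in roots. In all, 599 IDs met every part of the rule except the fold.

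The 6 h and 12 h groups played no part in choosing the genes, but their comparison with the controls does share the control libraries that the rule used. It is therefore described, and no p-value of a gene is given. At 6 h the median log2 ratio to control was -0.55 in aerial parts, against -0.06 over all genes, and -0.91 in roots, against -0.04. The mean was within 2-fold of control for 48 of the 62 genes in aerial parts and for 35 in roots. The 6 h mean lay above the 2 h mean for 62 genes in aerial parts and for 60 in roots, a direction that choosing genes for low 2 h values favours.

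At 12 h the values lay further below control in roots. The median log2 ratio to control was -0.76 in aerial parts and -1.62 in roots, against -0.07 and -0.06 over all genes. In roots the 12 h mean was below control for all 62 genes and at least 3-fold below for 33. In aerial parts it was below control for 50 genes and at least 3-fold below for 18. With TPM rescaled to the total of the values listed per library, the 12 h median was -1.36 in roots, with 60 genes below control. In aerial parts it was then -0.66, with 45 genes below control.

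Applied at the later times, the rule found 4 of the 62 genes lowered in aerial parts and 3 in roots at 6 h, where it found 0.34% and 0.331% of all IDs. At 12 h it found 15 lowered in aerial parts, against 0.996% of all IDs, and 32 in roots, against 1.23%. It found none of the 62 raised at 6 h, against 0.186% of all IDs in aerial parts and 0.549% in roots, and none at 12 h, against 0.392% and 0.967%. Since the control values that chose the genes enter again here, nothing is read from these shares.

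A limma fit of log2(TPM + 1) within each organ, over 16608 genes in aerial parts and 16600 in roots, used the same controls. Choosing genes by these controls favours calls of lower levels. The counts are therefore a description, and nothing is read from them. The fit called 5 of the 62 genes lower at 12 h in aerial parts, against 1.42% of all genes lower and 2.49% in either direction. It called 17 lower in roots, against 2.98% and 4.76%. At 6 h it called none in aerial parts, against 0.0%, and 1 in roots, against 0.217% lower and 0.512% in either direction. In the aerial 6 h comparison 15 members (24.2%) had an unadjusted p under 0.05, against 11.1% of all genes. The aerial 12 h count was 2 without aerial 12 h replicate 2 or 3 or control replicate 1 or 3, and 3 without 12 h replicate 1. These fits called 0.458% to 0.868% of all genes. The root 12 h count was 2 without root 12 h replicate 2, 4 without control replicate 1, 7 without 12 h replicate 3 or control replicate 2, and 11 without 12 h replicate 1. At 6 h, leaving out replicate 2 gave 3 calls in aerial parts, against 0.212% of all genes, and 8 in roots, against 4.6%. Leaving out replicate 3 gave 2 in roots, against 1.62%.

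By their state at 12 h the genes fell into 4 classes. The rule found 11 lowered in both organs, 21 in roots alone, 4 in aerial parts alone and 26 in neither. The share of all IDs in each class was not counted, so nothing is read from these counts. The 11 genes had median log2 ratios to control of -3.35 at 2 h, -0.68 at 6 h and -3.49 at 12 h in aerial parts, and of -2.63, -1.45 and -2.64 in roots. Their low values at 2 h and 12 h are set by the choice of the class, and their 6 h medians rest on replicate 2: without it they were -2.69 in aerial parts and -3.63 in roots. The 21 genes had -2.53, -0.10 and -0.74 in aerial parts, where the 6 h median was -0.69 without replicate 2 and -0.03 without replicate 3, and -2.89, -0.89 and -2.38 in roots. The 26 genes had -2.28, -0.55 and -0.35 in aerial parts and -2.08, -0.68 and -1.20 in roots. In these classes too, the rule fixed the low 2 h values, and the sorting into classes shaped the 12 h values.

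**Figure D2:**
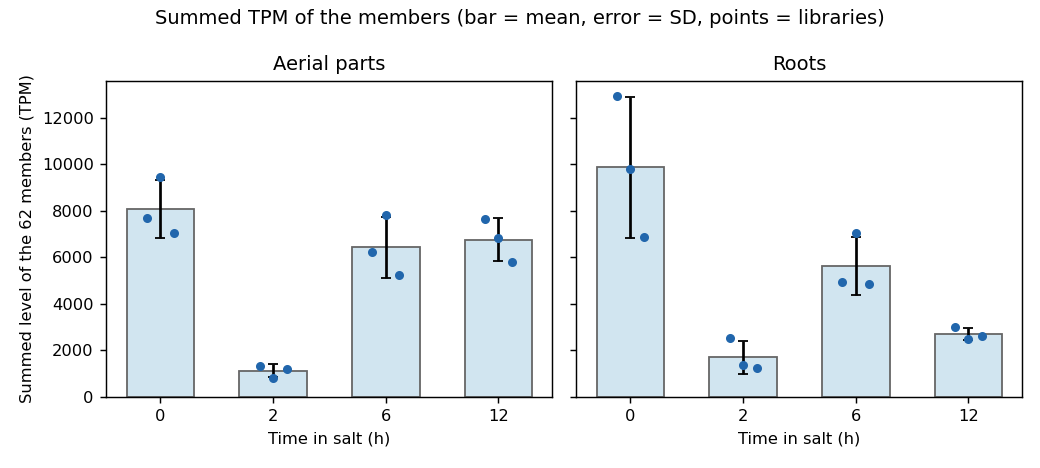
Summed TPM of the 62 genes in each library, by organ and hours of salt, with points for libraries and a bar for the mean and SD of 3 libraries. In aerial parts the mean went from 8069 TPM in controls to 1117 at 2 h, 6424 at 6 h and 6756 at 12 h, and in roots from 9873 to 1704, 5622 and 2702.

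The summed level gave the same order of times in roots. The 62 genes together held 9873 ± 3027 TPM in control roots, 1704 ± 710.3 at 2 h, 5622 ± 1240 at 6 h and 2702 ± 272 at 12 h (SD, n = 3). The 12 h root libraries, at 2477 to 3004 TPM, lay below those of 6 h, at 4859 to 7052 TPM. In aerial parts the sums were 8069 ± 1243, 1117 ± 275, 6424 ± 1308 and 6756 ± 915 TPM, and the 6 h and 12 h libraries overlapped. The 10 most abundant members made up 60.0% to 75.6% of these sums, so the sums describe those few genes.

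The 6 h libraries of replicate 2 stood apart in both organs. Salt libraries of both organs carry the same title numbers, and at 6 h replicate 2 had the highest value of the 3 for 40 of the 62 genes in aerial parts, against 42.8% of all genes. It was highest for 41 in roots, against 34.2% of all genes, and for 33 in both organs, against 23.8%. The members' median log2 ratio to control was -0.98, 0.02 and -0.91 in the 3 aerial libraries at 6 h and -1.02, -0.41 and -1.12 in the root libraries. Without replicate 2 the 6 h medians were -0.92 in aerial parts and -1.08 in roots. Other libraries moved them the other way, in aerial parts to -0.34 without 6 h replicate 1, -0.27 without 6 h replicate 3 and -0.31 without control replicate 2, and in roots as far as -0.62 without control replicate 1. Without 6 h replicate 2 the rule found 20 of the 62 genes lowered in aerial parts, against 0.766% of all IDs, and 16 in roots, against 1.02%.

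A subset of 10 genes was picked here after the values were seen. In these 10 of the 62 (16.1%) replicate 2 was at least 4-fold above both other 6 h libraries in both organs, as it was in 348 of all genes (2.08%). Glyur000283s00016941 had 0, 70.2 and 0 TPM in the 6 h aerial libraries and 11.7, 128 and 0 TPM in the 6 h roots. Glyur000034s00002940 had 0.5, 20.7 and 0.05 TPM in aerial parts and 0.2, 108 and 1.2 TPM in roots. For the 10 genes the median log2 ratios at 6 h were -3.72, 0.91 and -3.32 in aerial parts and -4.55, 0.06 and -4.89 in roots. The other 52 genes had -0.70, -0.10 and -0.84 in aerial parts and -0.89, -0.57 and -0.91 in roots. This contrast at 6 h follows from the pick. At 12 h the medians of the 10 genes also varied between libraries and were highest in replicate 1. Glyur000156s00012008 and Glyur001480s00032557 were at 0 in all 3 aerial libraries of 12 h. Over all genes, replicate 1 was the highest of the 12 h libraries for 39.2% in aerial parts and 41.1% in roots. The 12 h medians of the 10 genes were -1.01, -3.56 and -4.17 in aerial parts and -1.56, -5.39 and -4.91 in roots. Those of the other 52 were -0.48, -0.51 and -0.89 in aerial parts and -1.42, -1.65 and -1.67 in roots.

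**Figure D3:**
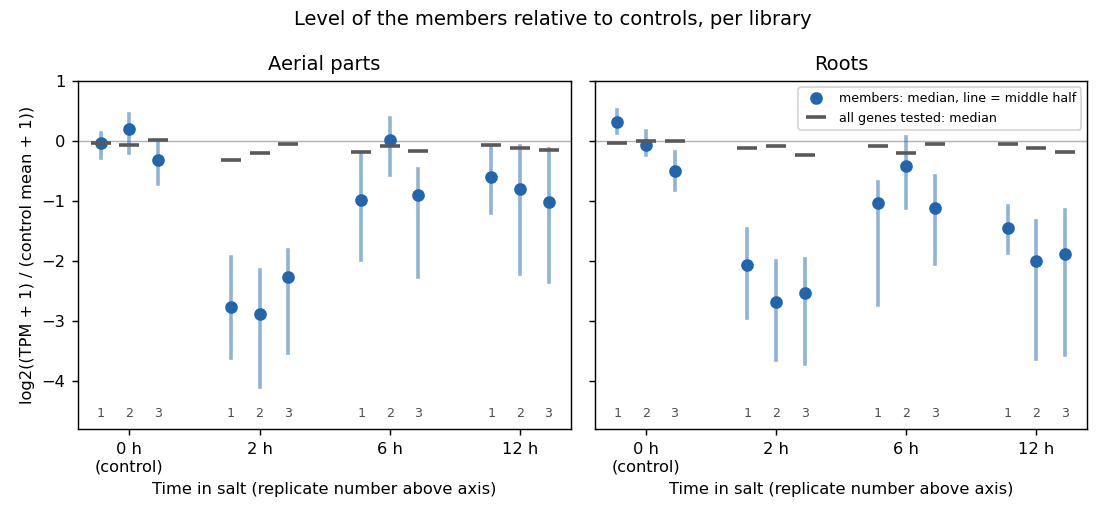
Median over the 62 genes of the log2 ratio of TPM + 1 to the control mean of the organ, for each library (points, with lines over the interquartile range), beside the median over all 16718 genes (dashes). The all-gene medians stay between -0.32 and 0.02. The members' median is lowest at 2 h, from -2.88 to -2.27 in aerial parts and from -2.67 to -2.06 in roots, and in 6 h replicate 2 of the aerial parts it is 0.02.

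Only the libraries of 6 h and 12 h are independent of the rule, so the tests below were run on these 12 libraries, over 16684 genes, with limma on log2(TPM + 1). All controls were taken at 0 h, so between 6 h and 12 h the time in salt and the hour of sampling cannot be told apart. The threshold was an adjusted p of 0.05 (Benjamini-Hochberg, over all these genes), and genes past it are said to be called. From 6 h to 12 h in roots, 6 of the 62 genes fell and none rose. Over all genes 0.3% fell, 0.0779% rose and 0.378% changed in either direction. The members had at least 10 TPM in the controls of both organs, while all genes of the fit needed only a mean of 0.5 TPM. Shares of all genes, here and below, are thus not matched to the members for level. The median of the members' log2 differences (12 h minus 6 h) was -0.62, against 0.00 over all genes, with 52 of 62 negative. The 3 libraries of 12 h lay wholly below the 3 of 6 h for 19 members, against 7.35% of all genes, and wholly above them for none, against 7.15%. Without 6 h replicate 2 they were 23, against 16.4%, and none, against 12.3%.

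Of the 6, Glyur000145s00010136 and Glyur003553s00042434 had the lowest p. Glyur000145s00010136 had 36.2, 46.1 and 30.7 TPM in roots at 6 h and 5.29, 4.36 and 5.72 TPM at 12 h. The groups did not overlap, and the log2 difference was -2.65 ± 0.18 (SE; limma adjusted p = 0.000254). Its root controls had stood at 87.8, 77.8 and 60.9 TPM and its 2 h roots at 11.9, 7.71 and 0.35 TPM, so the 12 h roots were back in the range of 2 h.

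In aerial parts Glyur000145s00010136 was more abundant. Its controls had 514, 1309 and 557 TPM, its 2 h libraries 81.7, 14.2 and 11.0 TPM, its 6 h libraries 745, 808 and 685 TPM and its 12 h libraries 639, 750.1 and 623 TPM. The 6 h and 12 h libraries overlapped, with a log2 difference of -0.16 (limma adjusted p = 0.806).

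Glyur003553s00042434 followed a similar course at a lower level. Its roots had 25.9, 29.5 and 10.7 TPM in controls, 0.84, 0.44 and 0.09 TPM at 2 h, 11.7, 11.2 and 11.4 TPM at 6 h and 0.76, 1.19 and 0.93 TPM at 12 h. The 12 h libraries lay well below those of 6 h, by -2.67 ± 0.19 on the log2 scale (SE; limma adjusted p = 0.000254). The aerial parts had 310.1, 352 and 219 TPM in controls, 24.8, 11.1 and 43.9 TPM at 2 h, 199, 147 and 213 TPM at 6 h and 151, 166 and 125 TPM at 12 h. There the 6 h and 12 h libraries overlapped, with a difference of -0.33 (limma adjusted p = 0.532).

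The other 4 genes that fell in roots were Glyur000626s00022213, Glyur001793s00029326, Glyur000083s00006945 and Glyur000006s00001680, of which all but Glyur001793s00029326 are named after their values were seen. Glyur000626s00022213 had 12.9, 42.8 and 13.3 TPM in roots at 6 h and 0.51, 0.13 and 0.69 TPM at 12 h, a log2 difference of -3.85 ± 0.40 (SE; limma adjusted p = 0.00421). For Glyur000083s00006945 the roots went from 307, 422 and 346 TPM to 129, 73.3 and 79.4 TPM, a difference of -1.95 ± 0.27 (SE; limma adjusted p = 0.0191). For Glyur001793s00029326, whose root values stand above, the difference was -1.39 ± 0.23 (SE; limma adjusted p = 0.0342). For Glyur000006s00001680 it was -1.32 ± 0.23 (SE; limma adjusted p = 0.0445), from 259.9, 369 and 319 TPM to 108, 110.3 and 161 TPM.

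These calls rest on a spread shared across organs. With only the 6 root libraries in the fit limma called none of the 62 genes nor any of the other genes. For the 6 genes called above, the limma adjusted p then ran from 0.0847 to 0.395. An unadjusted p under 0.05 was found for 17 members, and the share of all genes at this level was not counted. Leaving out 1 library left 3 to 5 calls, with 3 without root 12 h replicate 2 or 3 or root 6 h replicate 2, the last of which also gave a members' median of -0.36. The fits with 1 library left out called 0.0779% to 1.23% of all genes. Glyur000145s00010136, Glyur003553s00042434 and Glyur000626s00022213 were called whichever library was left out. Glyur000006s00001680 was lost without any 1 of the 6 root libraries, Glyur001793s00029326 without any but 6 h replicate 3, and Glyur000083s00006945 without 12 h replicate 2 or 3 or 6 h replicate 2.

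**Figure D4:**
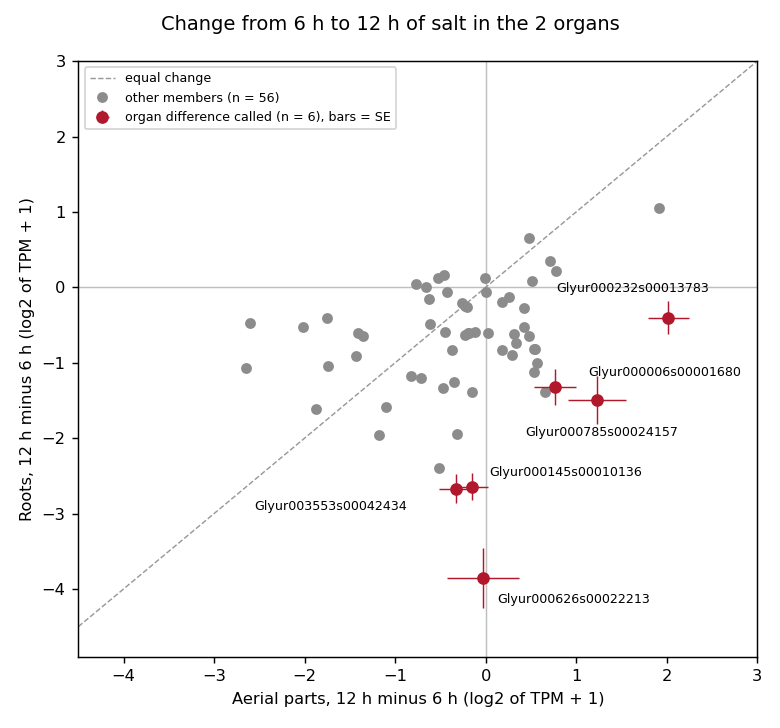
Log2 difference of 12 h minus 6 h in aerial parts (horizontal axis) and in roots (vertical axis), both on TPM + 1, with a point for each of the 62 genes. Red points with SE bars are the 6 genes whose change differed between organs, grey points the other 56, and the dashed line marks equal change, below which all 6 lie. Of the 62, 33 are negative in both organs, 19 positive in aerial parts and negative in roots, and 5 positive in both.

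In aerial parts, the change from 6 h to 12 h was called for 2 of the 62 genes, 1 in each direction, where 1.94% of all genes were called, 0.755% higher and 1.19% lower. The members' median log2 difference was -0.20 and became 0.19 without aerial 6 h replicate 2. The 12 h libraries lay wholly below those of 6 h for 8 members, against 8.58% of all genes, and wholly above for 9, against 12.1%. Without 6 h replicate 2 these counts were 9, against 13.7%, and 15, against 20.1%.

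Glyur000232s00013783 rose. Its aerial libraries had 21.0, 19.2 and 23.2 TPM at 6 h and 75.2, 95.5 and 96.3 TPM at 12 h, with no overlap, a log2 difference of 2.02 ± 0.22 (SE; limma adjusted p = 0.00146). The aerial controls had 43.8, 51.0 and 47.0 TPM and the 2 h libraries 0.99, 0 and 6.82 TPM, so that the 12 h level lay above every aerial control. In roots it had 170, 215 and 82.6 TPM in controls, 36.0, 10.2 and 10.1 TPM at 2 h, 83.3, 87.1 and 125 TPM at 6 h and 72.6, 57.5 and 93.4 TPM at 12 h. The 6 h and 12 h roots overlapped, with a difference of -0.40 (limma adjusted p = 0.577).

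Glyur000296s00018759 fell in aerial parts. It had 112, 123 and 112 TPM there at 6 h and 20.8, 17.6 and 16.4 TPM at 12 h, a log2 difference of -2.60 ± 0.29 (SE; limma adjusted p = 0.00146). Its aerial controls had 92.5, 125 and 113 TPM and its 2 h libraries 32.3, 16.6 and 38.6 TPM, so the gene was inside its control range at 6 h and below it at 2 h and 12 h. In roots the levels were 45.0, 63.9 and 49.1 TPM in controls, 16.9, 11.4 and 20.7 TPM at 2 h, 31.4, 18.2 and 46.6 TPM at 6 h and 24.7, 17.7 and 22.3 TPM at 12 h. The late change in roots was -0.47 (limma adjusted p = 0.627), and the difference between organs did not pass the test (limma adjusted p = 0.0616).

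**Figure D5:**
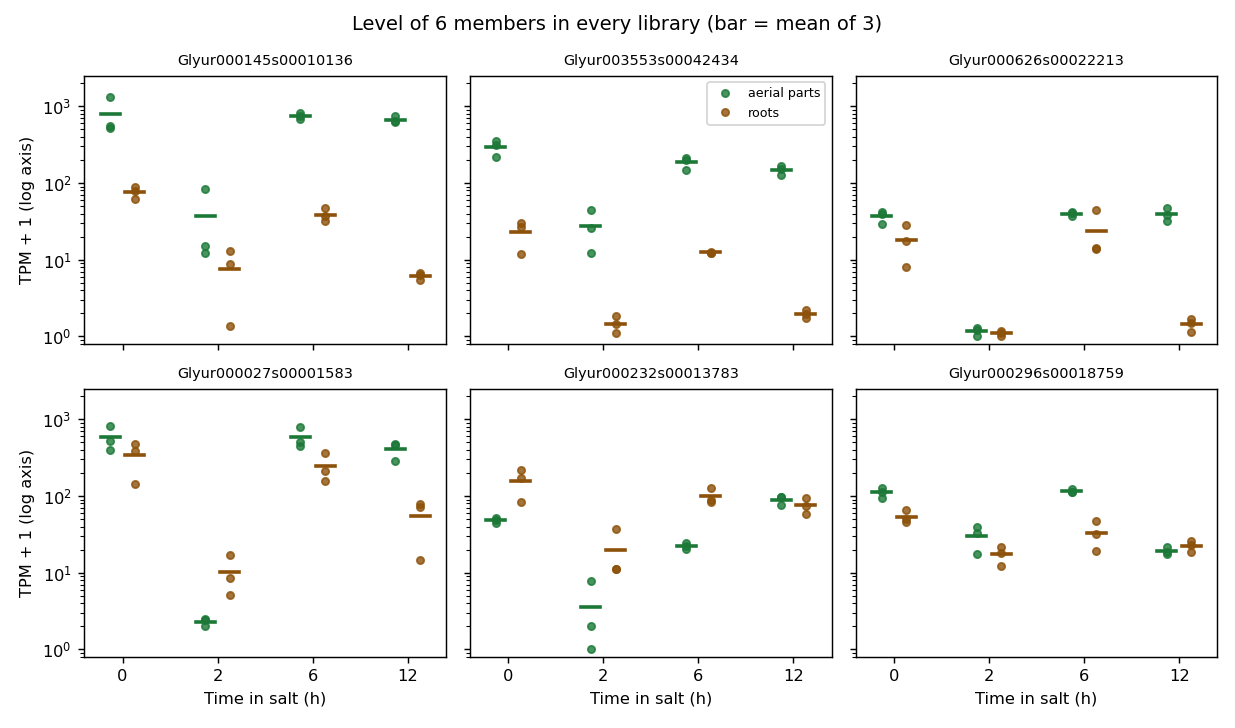
TPM + 1 on a log axis against hours of salt for Glyur000145s00010136, Glyur003553s00042434, Glyur000626s00022213, Glyur000027s00001583, Glyur000232s00013783 and Glyur000296s00018759, with a point per library and a bar at each group mean, aerial parts in green and roots in brown. Every gene is low at 2 h in both organs. From 6 h to 12 h the root levels of the first 3 change by -2.65, -2.67 and -3.85 on the log2 scale, and the aerial level of Glyur000232s00013783 by 2.02.

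Whether the late change differed between organs was tested directly, as the root difference of 12 h minus 6 h less the aerial difference. For 6 of the 62 genes it did, each with the more negative change in roots, where 0.312% of all genes were called in either direction, 0.144% in that direction and 0.168% in the other. Here too the shares of all genes are not matched for level. The members' median was -0.44, against -0.03 over all genes, with 43 negative and 19 positive. The log2 value was -2.49 ± 0.25 for Glyur000145s00010136 and -2.34 ± 0.27 for Glyur003553s00042434 (SE; limma adjusted p = 0.00313 and 0.00618). For Glyur000232s00013783, which rose in aerial parts, it was -2.42 ± 0.31 (SE; limma adjusted p = 0.0153).

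The other 3 were Glyur000626s00022213 at -3.82 ± 0.56, Glyur000006s00001680 at -2.09 ± 0.33 and Glyur000785s00024157 at -2.72 ± 0.45 (SE; limma adjusted p = 0.0233, 0.0327 and 0.0389), named after their values were seen apart from Glyur000785s00024157. In aerial parts Glyur000626s00022213 had overlapping libraries, at 39.4, 35.9 and 40.5 TPM at 6 h and 37.2, 46.4 and 31.2 TPM at 12 h. Glyur000006s00001680 stood at 332, 461 and 354 TPM in aerial parts at 6 h and at 529.9, 647 and 785 TPM at 12 h, without overlap but not called. With the shared title numbers as a replicate block in the model, 3 of the 6 passed. These were Glyur000145s00010136, Glyur003553s00042434 and Glyur000006s00001680 (limma adjusted p = 0.0381, 0.0429 and 0.0381). Treated as a correlation the numbers gave 9 calls among the 62, against 1.58% of all genes, 8 of them more negative in roots. With all 24 libraries in the fit 3 were called, against 0.335% of all genes. Of these, 2 were among the 6, and the other was a gene with the opposite direction. Glyur000145s00010136, Glyur003553s00042434, Glyur000232s00013783 and Glyur000006s00001680 missed the threshold there (limma adjusted p = 0.456, 0.0719, 0.308 and 0.504). Leaving out 1 library gave 2 to 6 calls, against 0.0839% to 0.379% of all genes. There were 2 without aerial 12 h replicate 2 or 3 and 3 without aerial 12 h replicate 1, aerial 6 h replicate 1 or 3 or root 12 h replicate 2. Without root 6 h replicate 2, 5 of 6 calls were more negative in roots, and without root 6 h replicate 3, 4 of 5. Glyur000145s00010136 and Glyur003553s00042434 were called whichever library was left out. Glyur000232s00013783 was lost only without aerial 12 h replicate 2 or 3, while the other 3 genes each lost the call in several of these fits. The members' median was -0.96 without aerial 6 h replicate 2 and -0.71 without root 12 h replicate 1.

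Levels were then compared between organs under salt. At 6 h, 17 of the 62 genes differed between roots and aerial parts, 13 lower and 4 higher in roots. Over all genes 28.1% differed, 11.9% lower and 16.2% higher in roots. At 12 h 22 differed, 20 lower and 2 higher, against 31.1%, 13.3% and 17.8% of all genes. The members' shares called in either direction, 27.4% and 35.5%, were near those of all genes. The rule asked for at least 10 TPM in the controls of both organs, and all genes of the fit met no such limit, so the splits by direction are not set against each other. Lower in roots at both times were 12 members, and higher at both were 2. The share of all genes called at both times was not counted, so nothing is read from these numbers.

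At 6 h the lowest p among those lower in roots belonged to Glyur000145s00010136, with a root minus aerial log2 difference of -4.29 (limma adjusted p = 3.65e-08), which was -6.78 at 12 h (limma adjusted p = 2.25e-09). Glyur003553s00042434 had -3.89 at 6 h and -6.24 at 12 h (limma adjusted p = 1.13e-07 and 3.97e-09). Both had been higher in aerial parts before salt.

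Among those higher in roots, Glyur000232s00013783 had a difference of 2.15 at 6 h (limma adjusted p = 3.64e-05) and of -0.27 at 12 h (limma adjusted p = 0.417), after its aerial level had risen. Glyur001793s00029326 had 2.04 at 6 h and 0.79 at 12 h (limma adjusted p = 6.47e-05 and 0.0214). The 12 h call was lost under 7 of 18 alternatives, among them leaving out 12 h replicate 1 or 3 of either organ. Glyur000464s00022396 kept a root excess of 1.53 at 6 h and 1.39 at 12 h (limma adjusted p = 0.00426 and 0.00666). It had 35.0, 23.3 and 60.2 TPM in roots and 14.5, 11.3 and 10.7 TPM in aerial parts at 6 h, and 26.1, 19.9 and 26.5 against 9.52, 6.38 and 10.1 TPM at 12 h. Its controls had 167, 91.1 and 66.0 TPM in roots and 34.7, 25.1 and 39.1 TPM in aerial parts.

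Glyur000177s00010930 was the single gene that the rule found lowered at 2, 6 and 12 h in both organs. Its controls had 26.9, 11.4 and 6.85 TPM in aerial parts and 21.0, 6.02 and 7.15 TPM in roots. Under salt it was listed at 0 in 17 of 18 libraries, the exception being 6 h replicate 2 of the aerial parts at 2.97 TPM. With no read counts, a value of 0 cannot be told from a low one.

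Of the 62 IDs, 10 have several lines in the deposited tables (16.1%, against 11.5% of the genes that passed the filter), and these were summed. Of the 28 pairs of such a line and an organ with a control mean of at least 1 TPM, all were lower at 2 h. The rule chose these genes by the sum of their lines. It thus fixed the direction of the line that held most of the level, and nothing is read from this count.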

How the data were processed

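The deposited files hold 1 table per library with TPM, the unit the authors deposited per the file headers. Tools named in the submitters' processing notes are edgeR, DESeq2, RSEM, StringTie, HISAT2 and fastp, without versions; the genome and its annotation: not given in the sources used here. No table holds columns of other samples. Each table has 38135 lines for 34445 IDs, summed per ID. The listed values sum to 391447 to 510545 TPM per library, so each table holds part of the set that was scaled. In roots these totals were 4.73e+05 or more in controls and 4.28e+05 or less under salt. In aerial parts they were 4.76e+05 or more in controls and 4.64e+05 or less under salt. Depth is unknown, since TPM keep no counts, and no counting interval is given. No pair of libraries was identical.

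The 62 members, the gene lists and the tests were chosen with earlier results of these data known. Differences were tested with limma 3.58.1 in R 4.3.3 on log2(TPM + 1), with the prior variance following mean level, for genes averaging 0.5 TPM or more across 24 libraries, in a fit of the 12 libraries of 6 h and 12 h with a term per group; genes without spread in these libraries were left out. Folds on this scale understate changes of low genes. The code was tested on simulated data. Python 3.11.15 served for the rule and the figures. Named members were the 2 lowest at 2 h, the 2 highest in controls, the 2 of lowest p in each direction of each test, up to 2 lowered at every time in both organs, up to 2 raised at 12 h (there was none), and the 4 IDs next to the 3-fold limit; others named are said to be chosen after their values were seen.

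Same-numbered aerial and root libraries deviated from their group means together (r from 0.20 to 0.57 across 16718 genes in 9 pairs, against -0.43 to 0.13 for other numbers). Deviations within a group cancel, so the values for other numbers are no independent comparison. The labels do not say what the numbers mean, and they served as a replicate block among the alternatives. The numbers come from the sample titles, and control titles share none. Alternatives covered the pseudocount, the filter, the scaling, the libraries in the fit, library weights, the replicate block and each library left out.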

Additional observations from a re-analysis of the deposited data

Results flagged for a closer look

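For 6 of the 62 genes, the change from 6 h to 12 h differed between the organs by a test of the difference itself (limma, 12 libraries, adjusted p under 0.05), with the root change below the aerial change in each. The differences, in log2, were -2.49 for Glyur000145s00010136, -2.34 for Glyur003553s00042434, -2.42 for Glyur000232s00013783, -3.82 for Glyur000626s00022213, -2.09 for Glyur000006s00001680 and -2.72 for Glyur000785s00024157. Over the alternatives tried, Glyur000145s00010136 passed in 22 of 23 and Glyur003553s00042434 in 21 of 23, while Glyur000006s00001680 and Glyur000785s00024157 passed in 10 of 23 each. Glyur000232s00013783 passed in 19 of 23 and Glyur000626s00022213 in 13 of 23. Groups of 3 libraries are too small for a test of single libraries that lie apart.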

How the results depend on the processing

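The rule gave 62 genes. It gave 39 with TPM rescaled to the listed total and 44, all among the 62, with median-of-ratios scaling. It gave 170 at 2-fold, 33 at 4-fold and 34 with a pseudocount of 5, and 55 to 82 with 1 library left out. Of the members, root 12 h minus 6 h called 6, but 0 with only the libraries compared (0.0% of all genes). With 1 left out it called 3 to 5 (0.0779% to 1.23%). Aerial 12 h minus 6 h called 2, but 4 with a pseudocount of 5 (2.58% of all genes), 1 with all 24 libraries (2.04%) and 10 with library quality weights (5.87%). It called 2 with any 1 left out (0.731% to 1.54%). The organ difference called 6, all more negative in roots, but 3 with all 24 libraries (0.335% of all genes), 2 of them in that direction. It called 3 with a fixed replicate block (0.0599%) and 2 to 6 with 1 left out (0.0839% to 0.379%). With duplicateCorrelation (a replicate block by title number, correlation 0.38) the counts were 2 for aerial (1.64% of all genes) and 6 for root 12 h minus 6 h (0.318%). Root minus aerial then gave 21 at 6 h (37.7%) and 25 at 12 h (40.6%). The organ difference gave 9 (1.58%), 8 of them more negative in roots. With the fixed block root minus aerial gave 21 at 6 h (34.4%) and 27 at 12 h (38.5%). Of the genes named, the block changed 3 calls, all of the organ difference: Glyur000232s00013783, Glyur000626s00022213 and Glyur000785s00024157 (adjusted p = 0.0519, 0.0677 and 0.0615 with limma). With 1 library left out, root minus aerial called 17 to 21 members at 6 h (22.5% to 30.3% of all genes) and 19 to 20 at 12 h (24.6% to 26.9%). Calls against controls reuse the libraries that chose the genes and are given as a description. Against controls in aerial parts at 6 h, limma called 0, with 15 at an unadjusted p under 0.05, against 11.1% of all genes. It called 1 with all 24 libraries (0.15% of all genes), 1 with weights (0.0361%) and 0 to 3 with 1 left out (0.012% to 0.212%). At 12 h it called 5, but 3 unfiltered (0.919%), 9 with all 24 (5.23%), 19 with weights (12.8%) and 8 with only the libraries compared (2.39%). With 1 left out it called 2 to 5 at 12 h (0.458% to 4.72%). In roots it called 1 at 6 h, but 4 with all 24 (2.63% of all genes), 22 with weights (13.8%) and 0 with only the libraries compared (0.0%). With 1 left out it called 1 to 8 at 6 h, the 8 without 6 h replicate 2 (4.6%). At 12 h in roots it called 17 (9 rescaled to the listed total, 33 with all 24, 47 with weights, 2 to 15 with 1 left out). Shares of all genes are not given for these 12 h alternatives, so nothing is read from them. The members' median reversed for aerial 12 h minus 6 h with weights (0.11) and without aerial 6 h replicate 2 (0.19), with -0.34 to 0.19 over the libraries left out, and for root minus aerial at 6 h without root 6 h replicate 1 (0.07), root 6 h replicate 3 (0.02) or aerial 6 h replicate 2 (0.44), from -0.78 upward. The cause was not tested. Rescaling by median of ratios set the all-gene median of aerial 2 h from -0.15 to 0. The 2 h medians over all 62 members were then -2.25 in aerial parts and -2.13 in roots, though the rule kept 44 of them.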
